A study of Mus musculus with 12 samples.

Results

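Insulin lowers blood glucose, and the adrenal medulla is one of the organs that answers. The comparison here was of all 12 arrays of the study: 6 from insulin-injected mice against 6 from saline-injected mice. The insulin effect was taken within colonized mice and within germ-free mice, and the mean of both effects was tested for 19505 genes. Where several probe sets stood for a gene, the brightest on average represented it. Differences are insulin minus saline on the log2 scale, where a difference of 1 is a factor of 2 in array intensity.

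Adrenal medulla RNA of male mice of strain C57Bl6 was hybridised to Affymetrix arrays, 1 array per animal. Colonized mice had a normal gut microbiota and germ-free mice had none. Each mouse was fasted for 3 h and injected intraperitoneally with human insulin (Humulin, 2 IU/kg) or the same volume of saline, and was killed 90 min after the injection. The 4 groups, colonized saline (animals 1 to 3), colonized insulin (4 to 6), germ-free saline (7 to 9) and germ-free insulin (10 to 12), held 3 animals each, and the p-values measure the spread between these animals.

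The medulla consists mainly of chromaffin cells, which synthesise and secrete adrenaline and noradrenaline together with peptides from the same granules. Falling glucose excites the splanchnic nerve, whose acetylcholine and PACAP (a peptide transmitter that raises cyclic AMP) depolarise these cells and drive secretion. The same signals switch on immediate early genes through calcium, cyclic AMP and the transcription factor CREB, which binds the cyclic AMP response element (CRE).

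The arrays of a group correlated with each other at 0.954 or more across probe sets, and colonized saline animal 2 gave the lowest value. Array medians ran from 6.26 to 6.33 in colonized mice and from 6.45 to 6.49 in germ-free mice. The negative control probes averaged 4.96 and 4.97 in the colonized groups and 5.56 and 5.57 in the germ-free groups, so this offset lay between colonization states and not between insulin and saline within a state. Markers of the chromaffin cell averaged 10.05 to 11.05 by group and those of the adrenal cortex 12.75 to 13.02, so the dissected tissue held both. In such bulk samples, fewer cells of a type and less RNA per cell cannot be told apart. Transcripts of other organs were also present and moved with some of the groups; their values are given beside the results they touch.

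In the mean of both colonization states, 80 genes differed between insulin and saline at an adjusted p under 0.05 (limma, Benjamini-Hochberg). Of these, 48 were higher after insulin (0.246% of all genes) and 32 were lower (0.164%). The changes called ran in size from 0.34 to 3.26, and without adjustment 2014 genes had a p under 0.05. The median effect over all genes was 0.0055, with 51.9% of genes above 0, and the median standard error was 0.102. The insulin and saline arrays did not overlap within either state, in the same direction, for 54 of the 80 genes (39 higher and 15 lower), against 318 of all genes (1.63%). The number called was sensitive to single animals. It was 131 without colonized saline animal 2, 53 and 50 without colonized insulin animals 4 and 5, 26 without germ-free saline animal 9, and 34 and 45 without germ-free insulin animals 11 and 12. By direction, 27 genes were called higher without germ-free saline animal 7, and 55 were called lower without germ-free saline animal 8. Without both colonized saline animals 1 and 2, an alternative chosen after seeing the data, 30 genes were called and 18 of the 80 were among them. In each of the 12 fits that left out 1 animal, 25 of the 80 genes were called.

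A mean effect can come from 1 state alone, so each state was also examined. Of the 80 called genes, 49 had an unadjusted p under 0.05 in both states in the same direction, 38 higher and 11 lower, where the same held for 170 of all genes (0.872%). A further 23 passed in germ-free mice alone (6 higher and 17 lower) and 8 in colonized mice alone (4 higher and 4 lower). These values come from the same arrays as the mean effect and describe the calls without adding independent evidence. A stricter test, which takes the larger of the 2 p-values and adjusts it over all probe sets, called 0 genes (0%) in limma, with a smallest adjusted p of 0.278; it called 1 gene without colonized saline animal 2 and 1 gene without colonized insulin animal 6. The scatter of the effects in each state shows the 3 kinds of called gene.

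**Figure D1:**
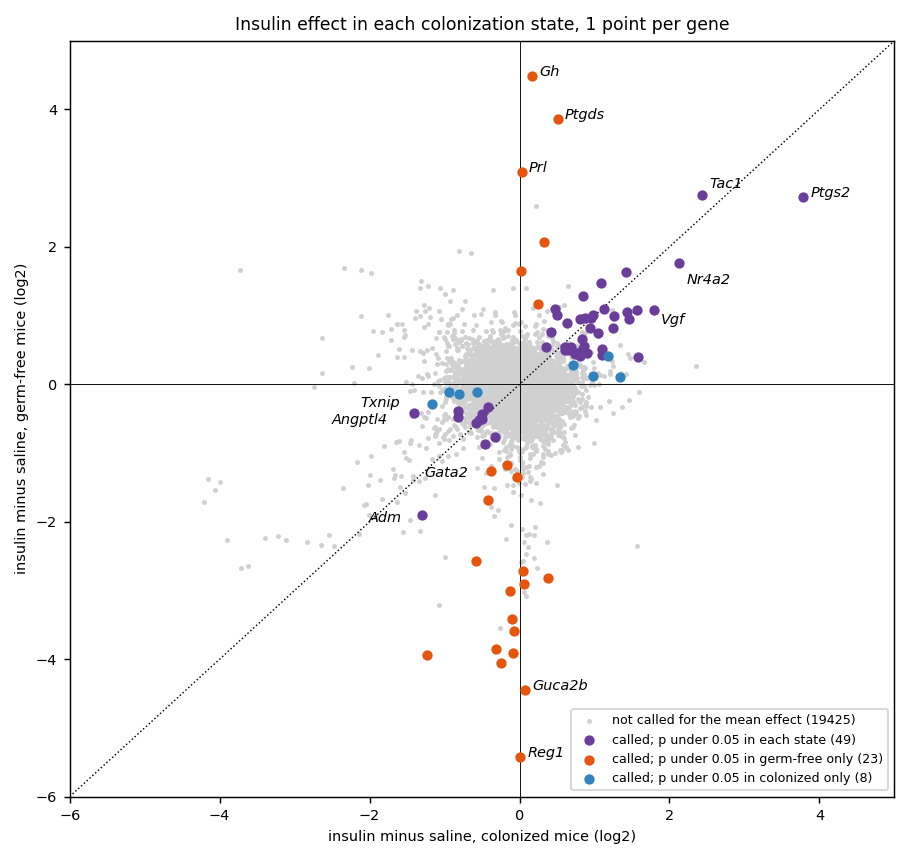
Insulin effect in colonized mice (horizontal axis, log2) against germ-free mice (vertical axis, log2), 1 point per gene, with the dotted line marking equal effects. The 49 purple genes had an unadjusted p under 0.05 in both states, and include Ptgs2, Tac1 and Nr4a2 at upper right and Adm at lower left. The 23 orange genes, with Gh, Ptgds and Prl at the top and Reg1 and Guca2b at the bottom, passed in germ-free mice alone. On the colonized axis they run from -1.24 (Pigr) to 0.51 (Ptgds).

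The largest rise was that of Ptgs2, which encodes the inducible cyclooxygenase that makes prostaglandin precursors. In colonized mice it read 4.61, 5.87 and 5.00 after saline and 10.06, 8.93 and 7.84 after insulin. In germ-free mice it read 6.92, 7.59 and 6.90 after saline and 10.02, 9.54 and 10.02 after insulin. All 6 insulin arrays lay above all 6 saline arrays. The mean effect was 3.26 ± 0.33 (SE, 6 arrays against 6; limma adjusted p = 0.00176), made of 3.78 in colonized and 2.73 in germ-free mice. Colonized saline arrays 1 and 3 (4.61 and 5.00) read below the mean of their own negative controls (4.92 and 5.04), so background limits the size measured in colonized mice. Among 21 measured genes of prostaglandin synthesis and reception, only Ptgs2 and Ptgds were called, and the median effect of the list was -0.02. Ptgds, a prostaglandin D synthase, had a mean effect of 2.18 ± 0.33, with 0.51 in colonized and 3.86 in germ-free mice. It read 9.22, 10.48 and 11.16 in germ-free insulin mice and 5.64 to 7.38 on the other 9 arrays. The mean level of 9 pituitary markers on the same germ-free insulin arrays was 6.57, 7.01 and 7.32, against 5.25 to 5.74 on the other 9, and their part in the result was not tested.

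Immediate early transcription factors, which cells switch on within minutes of a stimulus without new protein synthesis, had the highest median of the 28 gene lists. Of 32 measured members, 30 had effects above 0, 7 were called higher and 0 lower, and the median effect was 0.54, against 0.0055 over all genes. Of all genes, 51.9% had effects above 0, 0.246% were called higher and 0.164% lower, and these shares stand beside every list that follows. The median was 0.62 in colonized and 0.31 in germ-free mice, and 10 members had an unadjusted p under 0.05 in both states. The members called were Nr4a2, Csrnp1, Fosb, Btg2, Nr4a1, Maff and Egr3. The list also holds genes that are not transcription factors, Btg2 among them. All 28 lists were written with earlier results of these data known, so the counts in this and the other lists are not independent evidence.

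Nr4a2, an orphan nuclear receptor that also activates the tyrosine hydroxylase gene in dopamine neurons, read 8.10, 8.10 and 9.30 after saline and 11.26, 10.74 and 9.87 after insulin in colonized mice. Germ-free arrays gave 10.05, 10.44 and 9.88 after saline and 11.71, 11.83 and 12.11 after insulin. The arrays did not overlap in either state, but germ-free saline arrays lay about where the colonized insulin arrays did. It rose by 1.94 ± 0.25 (limma adjusted p = 0.00768). Fosb, a subunit of the AP-1 factor, showed the same layout. It read 7.21, 7.49 and 6.82 after saline and 8.48, 8.46 and 8.35 after insulin in colonized mice, and 8.45, 8.36 and 8.28 after saline and 9.06, 9.36 and 9.65 after insulin in germ-free mice. Its mean effect was 1.13 ± 0.12 (limma adjusted p = 0.0029), and it was called in each of the 12 fits that left out 1 animal.

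Csrnp1, a nuclear protein gene of the early response, rose by 1.21 ± 0.15, with effects of 1.46 in colonized and 0.95 in germ-free mice. Btg2, an antiproliferative partner of mRNA deadenylases, rose by 0.88 ± 0.16, with effects of 0.80 in colonized and 0.95 in germ-free mice; it was called in 3 of the 12 fits that left out 1 animal. Nr4a1, of the same receptor family as Nr4a2, rose by 0.79 ± 0.15 (limma adjusted p = 0.0471), with 1.17 in colonized and 0.41 in germ-free mice, and was called in 3 of the 12 fits without 1 animal. It already read 11.79 to 12.17 in germ-free mice after saline, against 10.44 to 11.31 in colonized mice.

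The best known members of the group were not called. Egr1, a zinc finger factor, had a mean effect of 0.68 ± 0.13 (limma adjusted p = 0.0546). It was called in 9 of 28 alternatives, among them those without colonized saline animal 2 or colonized insulin animal 6. They include the laxer threshold of 0.1, which the adjusted p of the main fit already passes. Its adjusted p ran from 0.00667 to 1.00 over all 28 alternatives. In colonized mice it read 9.80, 10.47 and 10.08 after saline and 11.70, 11.22 and 11.04 after insulin, with no overlap. In germ-free mice it read 11.01, 11.19 and 10.98 after saline and 11.20, 11.08 and 11.34 after insulin, and the arrays overlapped. Fos, the founding AP-1 subunit, had a mean effect of 0.26 ± 0.18 (limma adjusted p = 0.666), and 1 colonized insulin array (9.07) stood above the other 11, which ran from 7.46 to 8.12. Both genes differed in colonized mice by more than in germ-free mice (differences of -1.06 ± 0.26 and -0.65 ± 0.36), but neither difference was called (limma adjusted p = 0.212 and 0.581).

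**Figure D2:**
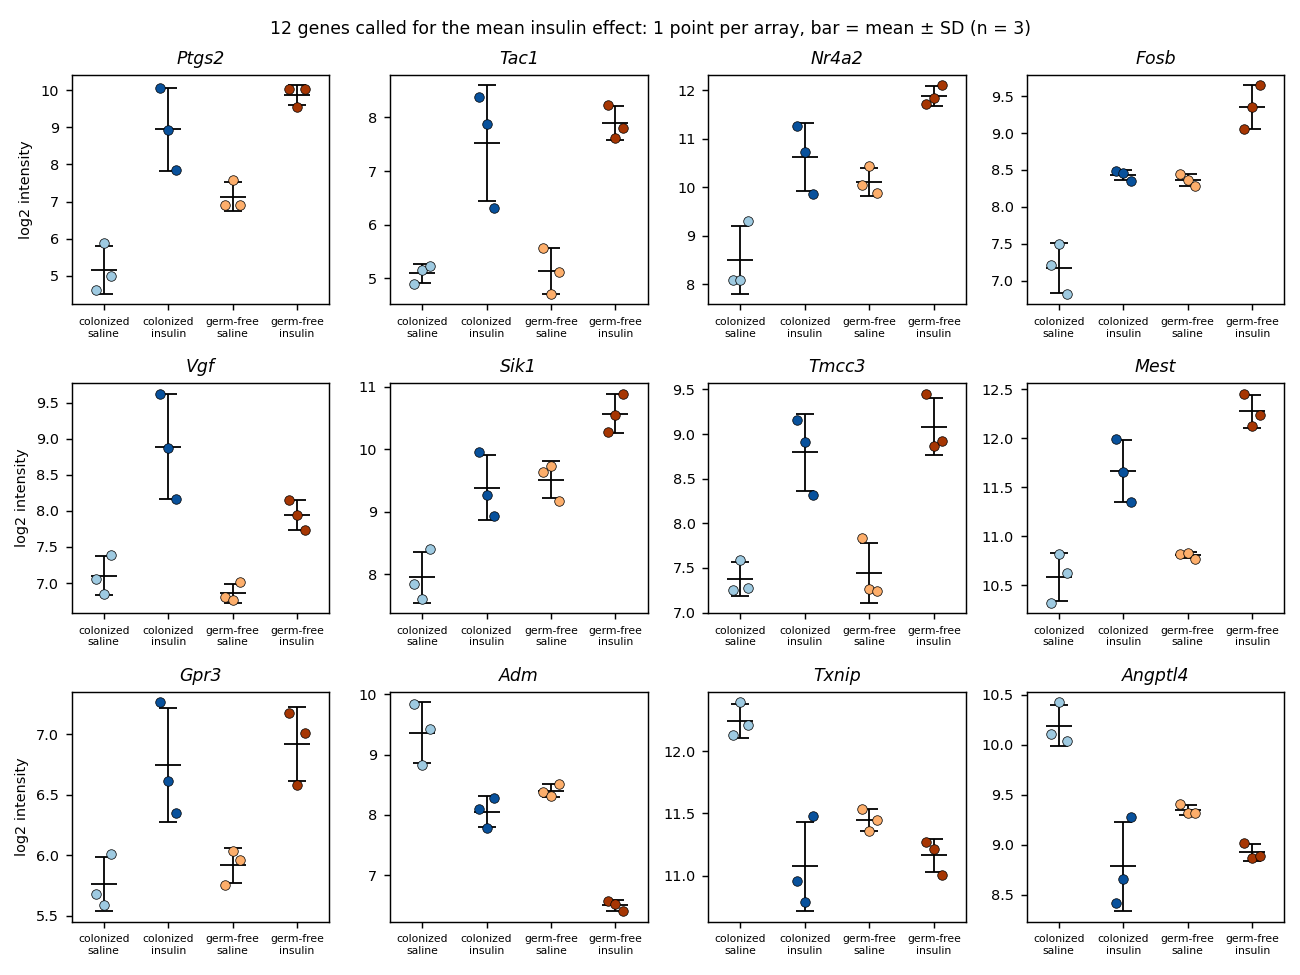
Log2 intensity of 12 called genes in the 4 groups (horizontal axis), 1 point per array, with the black bars giving the mean and SD of 3 arrays; each panel has its own vertical scale that does not start at 0. All 6 insulin arrays lie above all 6 saline arrays for Ptgs2, Tac1, Tmcc3 and Mest; Nr4a2, Fosb and Sik1 read higher after saline in germ-free than in colonized mice; and Adm, Txnip and Angptl4 are lower after insulin within each state.

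Genes that CREB switches on, or that damp cyclic AMP and CREB signalling, formed another list, which shares Nr4a2 with the immediate early factors. Of 25 measured members, 16 had effects above 0, and 5 were called higher (Tac1, Nr4a2, Sik1, Per1 and Dusp1) and 0 lower, with a median of 0.11. Sik1, a kinase that retains CREB coactivators in the cytoplasm, rose by 1.24 ± 0.19 (limma adjusted p = 0.0155). It read 7.85, 7.61 and 8.41 after saline and 9.95, 9.28 and 8.93 after insulin in colonized mice, and 9.64, 9.73 and 9.18 after saline and 10.29, 10.54 and 10.90 after insulin in germ-free mice. The groups did not overlap within either state. Per1, a clock gene whose promoter is a CREB target, rose by 0.71 ± 0.11, with 0.87 in colonized and 0.56 in germ-free mice. Gpr3, an orphan receptor that raises cyclic AMP without a ligand, rose by 1.00 ± 0.16, and its effects of 0.98 in colonized and 1.01 in germ-free mice differed by 0.02 (95% interval -0.66 to 0.70).

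Phosphatases that switch off MAP kinases were also among the called genes. Dusp1, which dephosphorylates p38, JNK and ERK, rose by 0.67 ± 0.12 (limma adjusted p = 0.04), with 0.83 in colonized and 0.50 in germ-free mice, and was called in 2 of the 12 fits without 1 animal. Dusp10, which acts on p38 and JNK, was called for the mean effect (0.73 ± 0.12), but read 9.33 to 9.56 after saline and 9.54 to 9.57 after insulin in germ-free mice. Its effect was 1.34 in colonized and 0.11 in germ-free mice, and this difference of -1.23 ± 0.23 was not called (limma adjusted p = 0.0838). Among 18 measured phosphatases and other ERK feedback genes, 14 had effects above 0 and the median was 0.26.

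Because several called genes are textbook CREB targets, the promoters of the members were searched for the CRE. RefSeq promoters (assembly GRCm38.p6) were matched by Entrez gene number for 15691 of the 19505 genes, among them 66 of the 80 called. The 14 called genes without a promoter were not searched, so a called gene not named with a motif need not lack it. The 250 bases before each gene start were searched on both strands. A gene was counted if any of its promoters held the motif, and the number of promoters per gene was not taken into account. The full CRE, TGACGTCA, was held by 2.27% of all these genes and by 0 of 29 called lower. It was held by 4 of 37 called higher (10.8%), namely Btg2, Hhip, Dusp1 and Maff. These 4 are shown because all had an unadjusted p under 0.05 in both states, with the CRE in capitals; Hhip and Maff were chosen for the motif. Hhip encodes a decoy receptor for hedgehog ligands and Maff a small bZIP factor without an activation domain.
Btg2, chr1:134079272-134079371, minus strand: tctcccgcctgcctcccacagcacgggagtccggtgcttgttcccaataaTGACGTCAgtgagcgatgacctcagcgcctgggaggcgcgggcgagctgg
Hhip, chr8:80058034-80058133, minus strand: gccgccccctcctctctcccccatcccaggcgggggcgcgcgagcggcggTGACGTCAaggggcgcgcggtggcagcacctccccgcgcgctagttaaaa
Dusp1, chr17:26508566-26508665, minus strand: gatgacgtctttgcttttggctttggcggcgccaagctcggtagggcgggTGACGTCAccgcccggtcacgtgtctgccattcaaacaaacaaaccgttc
Maff, chr15:79347441-79347519, plus strand: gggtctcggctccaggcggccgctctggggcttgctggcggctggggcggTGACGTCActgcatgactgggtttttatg

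The shorter CRE core, TGACG or CGTCA outside a full CRE, was held by 21.8% of all genes with a promoter. It was held by 19 of 37 genes called higher (51.4%) and by 3 of 29 called lower (10.3%). Among genes called higher with an unadjusted p under 0.05 in both states it stood in 17 of 29 (58.6%). Nr4a2 held 4 copies, the farthest of which begins 200 bases before the start; Tac1 held 2 and Fosb 1. These are shown because the genes rose among the most in both states, with the core in capitals.
Nr4a2, chr2:57124065-57124253, minus strand: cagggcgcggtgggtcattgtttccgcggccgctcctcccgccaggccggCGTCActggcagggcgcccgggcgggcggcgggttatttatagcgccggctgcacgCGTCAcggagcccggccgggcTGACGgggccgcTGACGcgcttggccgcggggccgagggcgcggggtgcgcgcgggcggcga
Tac1, chr6:7554814-7555060, plus strand: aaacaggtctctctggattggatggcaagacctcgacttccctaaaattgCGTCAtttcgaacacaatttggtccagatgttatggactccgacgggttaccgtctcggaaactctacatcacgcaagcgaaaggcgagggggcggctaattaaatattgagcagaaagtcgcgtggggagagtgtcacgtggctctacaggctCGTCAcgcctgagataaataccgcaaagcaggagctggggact
Fosb, chr7:19310056-19310155, minus strand: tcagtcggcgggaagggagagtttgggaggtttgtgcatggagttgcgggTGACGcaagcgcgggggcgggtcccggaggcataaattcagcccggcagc

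The core contains a CpG, and base composition moved with these counts. Averaged per gene, the median GC content was 56% over all genes with a promoter, 63% over those called higher and 55.6% over those called lower. The medians were 11, 15 and 5 CpG dinucleotides. The part of composition in the CRE counts was not tested, and a match of letters is a description and not a binding site. The AP-1 motif, TGACTCA or TGAGTCA, was held by 4.84% of all genes with a promoter, by 10.8% of those called higher and by 17.2% of those called lower. The CArG box, the motif of the serum response element, was held by 1.54% of all genes with a promoter. It was held by 0 of 37 called higher and by 1 of 29 called lower (3.45%).

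Among the peptide precursors of the secretory granule, Tac1 and Vgf rose most. Tac1, the precursor of substance P and neurokinin A, read 4.90, 5.15 and 5.22 after saline and 8.38, 7.88 and 6.31 after insulin in colonized mice. Germ-free arrays gave 5.57, 4.71 and 5.12 after saline and 8.24, 7.62 and 7.80 after insulin. The germ-free saline values lay below the mean of the negative controls and the colonized ones near it, which limits the size measured, and all 6 insulin arrays lay above all 6 saline arrays. Tac1 rose by 2.59 ± 0.29 (limma adjusted p = 0.00311), with 2.43 in colonized and 2.75 in germ-free mice, and the difference between states was 0.32 with a 95% interval of -0.95 to 1.59.

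Vgf, a granin-like precursor of several neuropeptides, read 7.06, 6.85 and 7.39 after saline and 9.63, 8.87 and 8.17 after insulin in colonized mice, and 6.80, 6.77 and 7.01 after saline and 8.15, 7.94 and 7.74 after insulin in germ-free mice. The arrays did not overlap, and Vgf rose by 1.44 ± 0.20 (limma adjusted p = 0.0101). Gal, the precursor of galanin, was chosen after its values were seen, since it missed the threshold narrowly: its effect was 1.16 ± 0.22 (limma adjusted p = 0.0544), 1.23 in colonized and 1.08 in germ-free mice, without overlap in either. Npy, the precursor of neuropeptide Y, had an effect of 0.24 ± 0.18 (limma adjusted p = 0.696), with overlapping arrays in both states.

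Over 19 measured neuropeptide precursors, 4 were called higher and 1, Adm, lower, and the median was 0.01. Nppb, the precursor of a natriuretic peptide and chosen after its values were seen, read 5.19, 5.66 and 5.51 in colonized insulin mice and 4.36 to 4.68 in the other 3 groups, at or below the negative controls in these 3. Its mean effect of 0.55 ± 0.09 came from 0.98 in colonized and 0.12 in germ-free mice. Pomc, the precursor of ACTH, was called from germ-free mice alone and is described with the pituitary hormones. Of 10 measured granins and processing enzymes only Vgf was called, and 7 had effects below 0. In colonized mice 8 of the 10 were above 0 (median 0.19), and in germ-free mice 3 of the 10 (median -0.47). Chromaffin markers moved with them, from a mean of 10.90 after saline to 11.05 after insulin in colonized mice and from 10.63 to 10.05 in germ-free mice, and their part was not tested. Chga, the major granin of the medulla, had an effect of -0.03 ± 0.13 (limma adjusted p = 0.962), whose sign turned with median centring of the arrays.

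Several less studied genes rose in both states. Mest, a paternally expressed imprinted gene of the hydrolase fold family, read 10.32, 10.82 and 10.62 after saline and 11.99, 11.66 and 11.35 after insulin in colonized mice, and 10.82, 10.83 and 10.77 after saline and 12.46, 12.13 and 12.24 after insulin in germ-free mice. All 6 insulin arrays were above all 6 saline arrays. Its mean effect was 1.28 ± 0.12, with the smallest adjusted p of the comparison, shared with Adm (limma adjusted p = 0.00149). It was made of 1.08 in colonized and 1.47 in germ-free mice. Tmcc3, a coiled-coil membrane protein of the endoplasmic reticulum, rose by 1.53 ± 0.17 (limma adjusted p = 0.0029), from 7.24 to 7.83 over the 6 saline arrays to 8.32 to 9.45 over the 6 insulin arrays. The effects were 1.42 in colonized and 1.64 in germ-free mice.

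Orphan receptors were among the rest. Gprc5a, a retinoic acid induced receptor, rose by 1.06 ± 0.14, with 0.85 in colonized and 1.28 in germ-free mice. Gpr19 rose by 1.03 ± 0.18, with 1.25 in colonized and 0.82 in germ-free mice. Plk3, a polo-like kinase of the stress response, rose by 1.11 ± 0.17, with effects of 1.13 and 1.10 in the 2 states that differed by -0.03 (95% interval -0.77 to 0.71). C2cd4b, a gene with a calcium-binding type of domain, rose by 1.32 ± 0.23, with 1.56 in colonized and 1.09 in germ-free mice. Gpr19 and C2cd4b were called in 4 of the 12 fits that left out 1 animal. Tent5a, a non-canonical poly(A) polymerase, rose by 0.99 ± 0.11, with 1.58 in colonized and 0.40 in germ-free mice, and this difference of -1.18 ± 0.22 was not called (limma adjusted p = 0.0883).

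Genes of ubiquitin, nuclear and transcript turnover in the early response were written as a list from such names, so its direction is not independent evidence. Of 23 measured, 20 had effects above 0, and 5 were called higher (Tmcc3, Plk3, Tent5a, Midn and Trib1) and 1 lower (Ypel2), with a median of 0.33. Midn, which carries nuclear proteins to the proteasome, rose by 0.88 ± 0.11, with 0.93 in colonized and 0.83 in germ-free mice. Trib1, a pseudokinase that directs proteins to a ubiquitin ligase, rose by 0.59 ± 0.09.

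**Figure D3:**
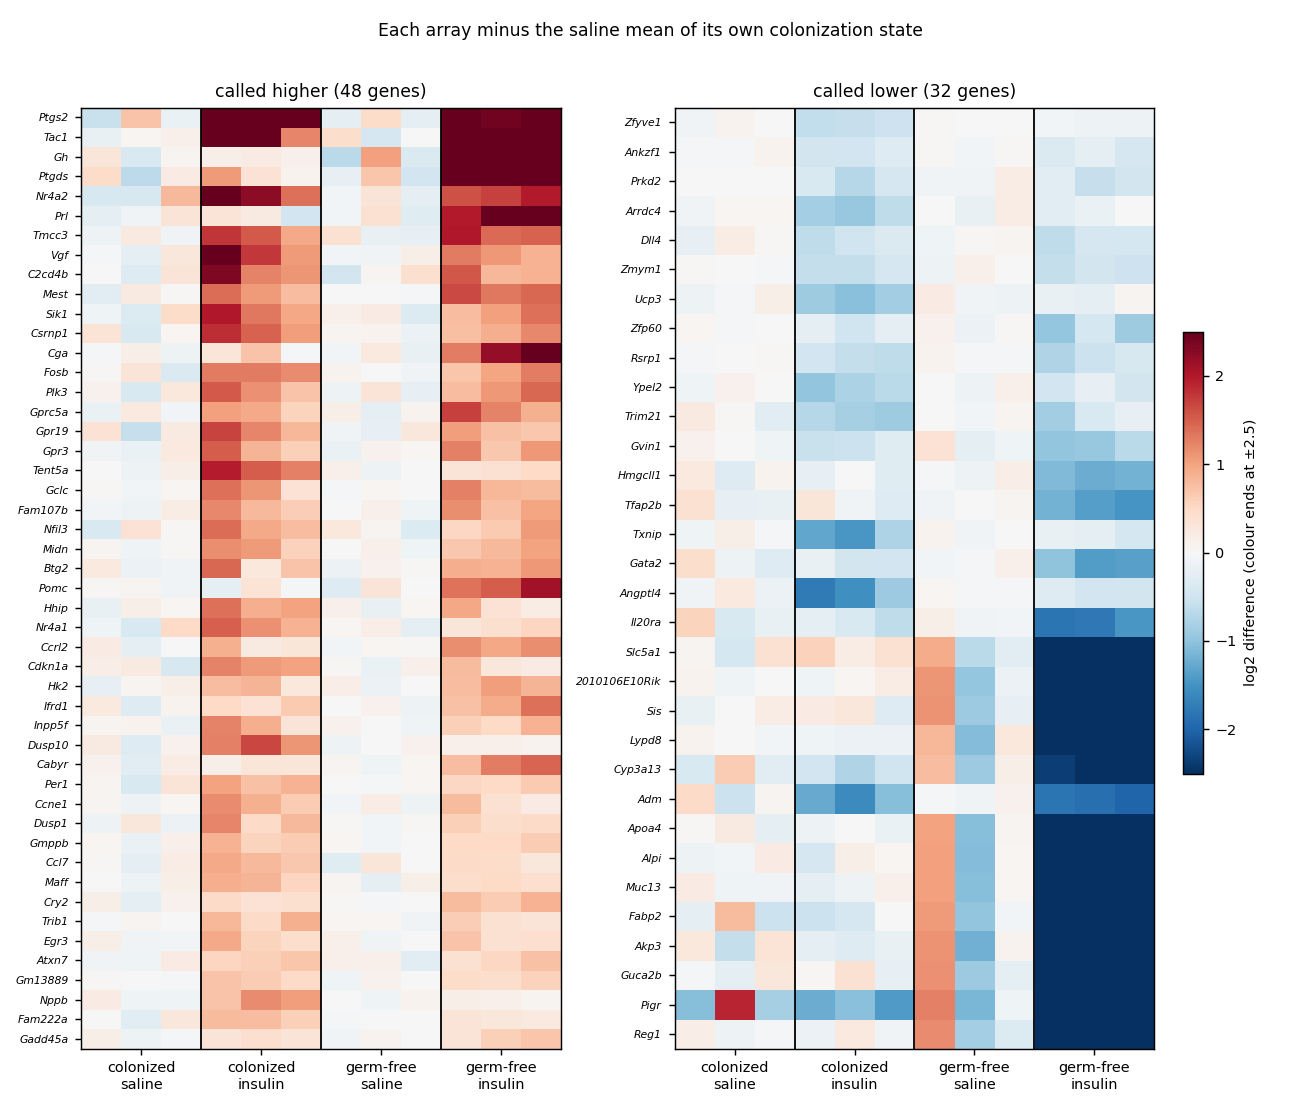
Heat map of the 80 called genes (rows, 48 higher at left and 32 lower at right) over the 12 arrays (columns, by group), coloured by each array's log2 difference from the saline mean of its own colonization state; colours end at ±2.5. Genes such as Ptgs2, Tac1 and Mest are red in both insulin groups. Gh, Ptgds and Prl are red in germ-free insulin mice alone, and intestinal genes such as Reg1 and Guca2b are dark blue there alone.

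Among the genes called lower, Adm encodes adrenomedullin, a vasodilator peptide first found in a tumour of the adrenal medulla. In colonized mice it read 9.84, 8.82 and 9.42 after saline and 8.10, 7.78 and 8.29 after insulin. In germ-free mice it read 8.38, 8.31 and 8.51 after saline and 6.57, 6.52 and 6.40 after insulin. The arrays did not overlap in either state. Adm fell by 1.60 ± 0.15 (limma adjusted p = 0.00149), with -1.31 in colonized and -1.90 in germ-free mice, and was called in each of the 12 fits that left out 1 animal. Of 20 measured genes of the adrenomedullin system and the hypoxia response, only Adm was called, and 10 had effects above 0. The other members ran from -0.26 to 0.30.

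Txnip and Arrdc4, alpha-arrestins that restrain glucose uptake and are induced by glucose, were called lower. Txnip read 12.13, 12.40 and 12.21 after saline and 10.95, 10.79 and 11.48 after insulin in colonized mice. Germ-free arrays gave 11.54, 11.36 and 11.45 after saline and 11.27, 11.21 and 11.01 after insulin. The arrays did not overlap in either state, but the effect was -1.17 in colonized and -0.29 in germ-free mice. Its limma p in germ-free mice, before adjustment, was 0.0986. The mean effect was -0.73 ± 0.11 (limma adjusted p = 0.0155). Arrdc4 had a mean effect of -0.48 ± 0.09, with -0.81 in colonized mice and -0.15 in germ-free mice, where the arrays overlapped.

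The E-box CACGTG stood in the 250 bases before the start of Arrdc4. It was held by 7.92% of all genes with a promoter and by 5 of 37 called higher (13.5%: Dusp1, Maff, Midn, Per1 and Tac1). Among genes called lower it was held by 3 of 29 (10.3%: Arrdc4, Pigr and Slc5a1), and these letters were not in the window of Txnip. Only these exact letters were searched, so the matches do not show where an element that responds to glucose is present or absent. The Arrdc4 match is shown in capitals as a description, since this gene is known to respond to glucose.
Arrdc4, chr7:68749382-68749481, minus strand: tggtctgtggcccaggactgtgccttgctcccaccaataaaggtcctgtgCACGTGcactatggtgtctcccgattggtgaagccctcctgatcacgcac

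Among 15 measured arrestins and glucose-responsive genes, 10 had effects below 0 and the median was -0.10. Angptl4, a secreted inhibitor of lipoprotein lipase and a fasting gene, read 10.11, 10.43 and 10.04 after saline and 8.42, 8.65 and 9.28 after insulin in colonized mice. In germ-free mice it read 9.40, 9.32 and 9.32 after saline and 9.02, 8.87 and 8.88 after insulin. The arrays did not overlap, and Angptl4 fell by 0.91 ± 0.13 (limma adjusted p = 0.0112), with -1.41 in colonized and -0.42 in germ-free mice. Ucp3, a mitochondrial carrier induced by fatty acids, had a mean effect of -0.53 ± 0.09, made of -0.94 in colonized and -0.12 in germ-free mice. Adipocyte markers, whose part was not tested, averaged 9.00 after saline and 7.53 after insulin in colonized mice, and 9.52 and 10.50 in germ-free mice. With their level as a covariate both genes were called lower. The 4 groups hold 59.3% of the variance of this covariate, so this fit does not separate adipocyte RNA from the groups. The differences between states for Txnip, Arrdc4, Angptl4 and Ucp3 ran from 0.66 to 0.98 and none was called (limma adjusted p from 0.151 to 0.261).

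The other lower genes with arrays apart in both states, Lypd8 and Cyp3a13 aside, changed by less. Of the 12 fits that left out 1 animal, Ypel2, Zmym1 and Rsrp1 were called in all 12, Gvin1 in 7 and Trim21 in 4. Dll4 and Zfp60 were called in 3, Ankzf1 and Zfyve1 in 2 and Prkd2 in 1. Dll4, a Notch ligand of endothelial cells, fell by 0.50 ± 0.09, with -0.50 in each state. Ypel2, of the yippee family, fell by 0.60 ± 0.09, and Prkd2, a protein kinase D, by 0.47 ± 0.09. Gvin1, an interferon-inducible GTPase, and Trim21, a cytosolic antibody receptor and ubiquitin ligase, fell by 0.66 ± 0.11 and 0.65 ± 0.12. Trim21 in germ-free insulin mice was at the level of the negative controls. Zmym1 and Zfp60, both zinc finger genes, fell by 0.53 ± 0.07 and 0.54 ± 0.10, and Rsrp1, rich in arginine and serine, by 0.57 ± 0.08. Ankzf1, which acts in ribosome quality control, fell by 0.38 ± 0.07, and Zfyve1, a phosphoinositide-binding protein of autophagy membranes, by 0.34 ± 0.06. The effect on Zfyve1 was -0.57 in colonized and -0.11 in germ-free mice, where its unadjusted p missed 0.05.

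Metabolic genes of insulin action itself were mostly not called. Of 31 measured genes of insulin signalling and FOXO targets, 15 had effects above 0, and only Trib1 and Gadd45a were called, both higher. Gadd45a, a stress and growth arrest gene that FOXO factors activate, rose by 0.44 ± 0.08 and was called in 2 of the 12 fits that left out 1 animal. Of 30 measured genes of glucose transport, glycolysis and glycogen, only Hk2 was called. Hk2, the insulin-inducible hexokinase of muscle and fat, read 7.68, 7.93 and 8.02 after saline and 8.64, 8.73 and 8.14 after insulin in colonized mice, and 7.42, 7.11 and 7.26 after saline and 8.04, 8.31 and 8.12 after insulin in germ-free mice. The arrays did not overlap within either state, and Hk2 rose by 0.76 ± 0.11 (limma adjusted p = 0.0143). Cholesterol synthesis and uptake had 19 of 22 measured genes above 0, with a median of 0.23 and 0 called in either direction by limma.

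Inflammatory cytokine and feedback genes had 25 of 30 measured members above 0, with a median of 0.21, 1 called higher (Ccl7) and 0 lower. Ccl7, a chemokine for monocytes, rose by 0.61 ± 0.11; its arrays overlapped in germ-free mice (5.89, 6.50 and 6.19 after saline, 6.68, 6.65 and 6.48 after insulin). Macrophage markers averaged 7.80 to 8.00 by group. Glucocorticoid targets had 3 of 24 called higher (Cdkn1a, Per1 and Dusp1), and clock genes 3 of 20 (Nfil3, Per1 and Cry2), against 0.246% of all genes. Their medians were 0.08 and 0.09. Per1 is a member of both lists, and Per1 and Dusp1 were also counted in the CREB list. Cdkn1a, a brake on the cell cycle, rose by 0.77 ± 0.13. Nfil3, a bZIP repressor, rose by 0.89 ± 0.16, and Cry2, a clock repressor, by 0.59 ± 0.08, with 0.42 in colonized and 0.77 in germ-free mice. Of the fits that left out 1 animal, Cry2 was called in all 12, Cdkn1a in 6, Ccl7 in 4 and Nfil3 in 3.

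The catecholamine genes were not among those called. Of 15 measured genes of catecholamine synthesis, storage and breakdown, 0 were called by limma, 13 had effects below 0 and the median was -0.14. The median was 0.00 in colonized and -0.38 in germ-free mice. Th, the rate-limiting tyrosine hydroxylase, read 13.59, 13.04 and 13.57 after saline and 13.91, 13.87 and 13.56 after insulin in colonized mice, and 13.41, 13.46 and 13.54 after saline and 13.47, 13.18 and 13.07 after insulin in germ-free mice. The groups overlapped in both states, and the values lay near the top of the scale. The mean effect was 0.08 ± 0.11 (95% interval -0.18 to 0.33; limma adjusted p = 0.874), and its sign turned without colonized saline animal 2.

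Dbh, which makes noradrenaline, had a mean effect of -0.14 ± 0.13, from 0.29 in colonized and -0.57 in germ-free mice. Pnmt, which makes adrenaline, had -0.11 ± 0.19, from 0.51 and -0.74, and Ddc, the decarboxylase that makes dopamine, -0.26 ± 0.13, from 0.01 and -0.53. The germ-free arrays did not overlap for Dbh, Pnmt and Ddc, with insulin lower in all 3. The share of all genes whose arrays stood apart in germ-free mice alone was not counted. Chromaffin markers, which include these genes, averaged 10.63 after saline and 10.05 after insulin in germ-free mice, and their part was not tested. None of Dbh, Pnmt and Ddc was called for the mean or for the difference between states (limma adjusted p of the differences from 0.33 to 0.522).

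The transcription factors of the chromaffin lineage were lower on balance: 6 of 8 measured had effects below 0, 2 were called lower and 0 higher, and the median was -0.52. The median was -0.10 in colonized and -0.93 in germ-free mice. Gata2, a zinc finger factor of sympathoadrenal development, read 10.15, 9.59 and 9.40 after saline and 9.52, 9.26 and 9.23 after insulin in colonized mice. Germ-free arrays gave 9.51, 9.52 and 9.70 after saline and 8.56, 8.19 and 8.22 after insulin. Only the germ-free groups stood apart, and the mean effect was -0.82 ± 0.13 (limma adjusted p = 0.0155). Tfap2b, an AP-2 factor of neural crest cells, had -0.70 ± 0.13, with -0.04 in colonized and -1.35 in germ-free mice. Beside these values, the 13 measured chromaffin markers, which include Gata2, ran on germ-free arrays from 10.56 to 10.72 after saline and from 9.83 to 10.32 after insulin, and 11 of 13 had mean effects below 0. The part of this shift in the result was not tested.

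Of the called genes that passed in germ-free mice alone, many are markers of other organs. All 14 measured markers of the intestinal epithelium had mean effects below 0, and 10 were called lower. The marker lists were written with earlier results of these data known, so such counts, here and for the other organs below, are not independent evidence. Their mean level ran from 5.01 to 5.20 over the colonized saline arrays, 4.92 to 5.00 over colonized insulin, 7.35 to 9.35 over germ-free saline and 4.93 to 5.22 over germ-free insulin arrays. Reg1, a secreted protein of regenerating gut and pancreas, read 10.37, 8.33 and 8.83 in germ-free saline mice and 3.54 to 3.93 in the other 9 arrays, below the negative controls. Its mean effect of -2.71 ± 0.26 was 0.00 in colonized and -5.43 in germ-free mice. Guca2b (uroguanylin), Akp3 (an intestinal phosphatase) and Pigr (the epithelial antibody transporter) had mean effects of -2.19, -2.16 and -2.59. The colonized effect of Pigr was -1.24, where saline animal 2 read 7.25 and saline animals 1 and 3 read 4.27 and 4.52. Lypd8, a colon epithelium protein, and Cyp3a13, a cytochrome of gut and liver, which were not in the marker list, had -1.57 and -1.58 and lay at or below the negative controls in 3 of 4 groups.

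Pituitary hormone genes made up the opposite pattern. All 9 measured pituitary markers, from a list also written with earlier results known, had mean effects above 0, and 4 were called higher. Their level ran from 5.25 to 5.33 after saline and from 5.31 to 5.50 after insulin in colonized mice, and from 5.42 to 5.74 after saline and from 6.57 to 7.32 after insulin in germ-free mice. Gh (growth hormone) read 10.31, 11.43 and 12.06 in germ-free insulin mice and 5.17 to 7.81 in the other 9 arrays. Prl (prolactin) read 7.42, 8.77 and 9.38 against 4.66 to 5.81, and Cga (the shared hormone alpha subunit) 5.63, 6.54 and 7.12 against 4.00 to 4.85. Pomc read 6.29, 6.47 and 7.04 against 4.61 to 5.47. For these genes the mean over states is an average of a shift in germ-free mice and values near 0 in colonized mice.

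**Figure D4:**
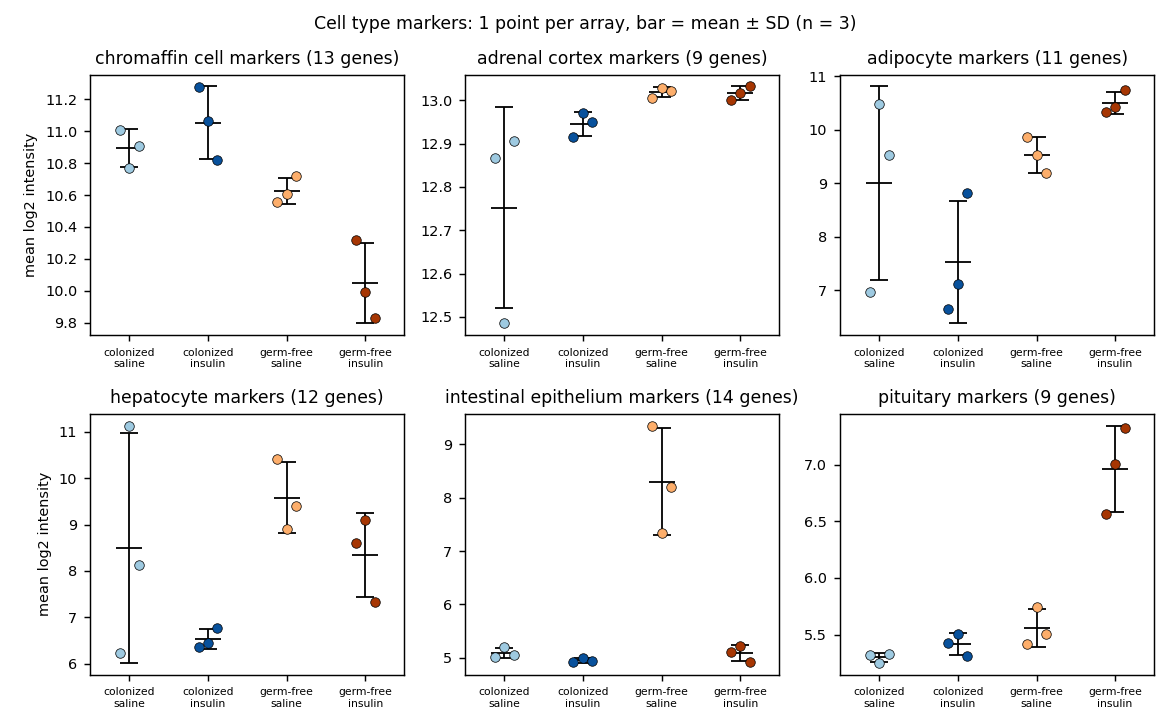
Mean log2 intensity of marker genes of 6 cell types in the 4 groups (horizontal axis), 1 point per array, with black bars giving the mean and SD of 3 arrays; each panel has its own vertical scale. Intestinal markers are high in the germ-free saline arrays (7.35 to 9.35) and pituitary markers in the germ-free insulin arrays (6.57 to 7.32), while adipocyte and hepatocyte markers spread widely within the colonized saline group.

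Hepatocyte markers were below 0 in all 12 measured genes, with a median of -1.61 (-1.63 in colonized and -1.50 in germ-free mice), and 0 were called by limma although 9 had an unadjusted p under 0.05. Their level spread from 6.23 to 11.13 over the colonized saline arrays. With the level of the intestinal or of the pituitary markers as a covariate, alternatives chosen after seeing the data, limma called 0 genes for the mean effect, against 519 and 783 at an unadjusted p under 0.05. The 4 groups hold 92.0% and 93.7% of the variance of these covariates, so they cannot be told apart from the groups. With the adipocyte, cortex or hepatocyte level as covariate, 158, 96 and 64 genes were called, and 80, 58 and 33 of the 80 genes were among them. The 4 groups hold 59.3%, 56.1% and 48.8% of the variance of these covariates, in that order.

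The difference between the states was tested for every gene. It was called for 7 genes (0.0359%), of which 5 were also called for the mean: Gh (4.32 ± 0.63), Slc5a1 (-3.20 ± 0.46), Muc13 (-3.83 ± 0.53), Guca2b (-4.52 ± 0.57) and Reg1 (-5.43 ± 0.53). Slc5a1, the intestinal glucose carrier, and Muc13, an epithelial mucin, belong to the intestinal list. None of the 49 genes with an unadjusted p under 0.05 in both states was among the 7. The effect was larger in colonized mice for 25 of the 38 such genes that were higher and for 8 of the 11 that were lower. A p that misses the threshold does not show that the states respond alike, and the interval for Ptgs2, -2.48 to 0.37, leaves room for an effect in germ-free mice well below that in colonized mice.

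The mean over states is small for genes whose effects had opposite signs. An unadjusted p under 0.05 in each state with opposite signs was found for 115 genes (0.59%). The other 2 genes called for the difference were of this kind and were named after their values were seen. Slc25a20, the mitochondrial carnitine carrier, had -0.55 in colonized and 0.51 in germ-free mice, and Adarb1, an RNA-editing deaminase, had 0.57 and -0.96. Their mean effects were -0.02 ± 0.08 and -0.20 ± 0.11.

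PPAR targets and fasting lipid genes had a median of -0.04 for the mean effect over 29 measured, but -0.54 in colonized mice (5 above 0) and 0.27 in germ-free mice (22 above 0). Genes of the respiratory chain and ATP synthase had 1 of 25 above 0 in colonized mice and 25 of 25 in germ-free mice, with medians of -0.18 and 0.28. Adipocyte markers moved with both lists: 1 of 11 was above 0 in colonized and 11 of 11 in germ-free mice. In colonized mice their level averaged 9.00 ± 1.81 (SD, n = 3) after saline and 7.53 ± 1.14 after insulin. In germ-free mice it averaged 9.52 ± 0.34 after saline and 10.50 ± 0.21 after insulin. The part of adipocyte RNA in these lists was not tested.

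Other lists gave no calls in either direction in limma. Receptors for acetylcholine, PACAP and related signals had 7 of 19 measured genes above 0 (median -0.12), voltage-gated channels 6 of 18 (-0.03), and the exocytosis machinery 4 of 18 (-0.09). Some of these small medians average states with opposite signs. Interferon-stimulated genes had 19 of 25 above 0 in colonized mice (median 0.11) and 2 of 25 in germ-free mice (-0.21). Growth factors had 10 of 24 (-0.06) and 19 of 24 (0.17), channels 13 of 18 (0.03) and 5 of 18 (-0.14), and the receptors 10 of 19 (0.06) and 5 of 19 (-0.11). These splits by state were not tested. Over both states, steroid synthesis and the ACTH response had 14 of 18 above 0 (0.05), heat shock 6 of 15 (-0.10), endoplasmic reticulum stress and ATF4 targets 17 of 25 (0.07), interferon-stimulated genes 10 of 25 (-0.05), secreted growth factors 14 of 24 (0.07), and RNA editing and splicing regulators 11 of 16 (0.03). The plot of all lists sets these beside the lists with calls.

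**Figure D5:**
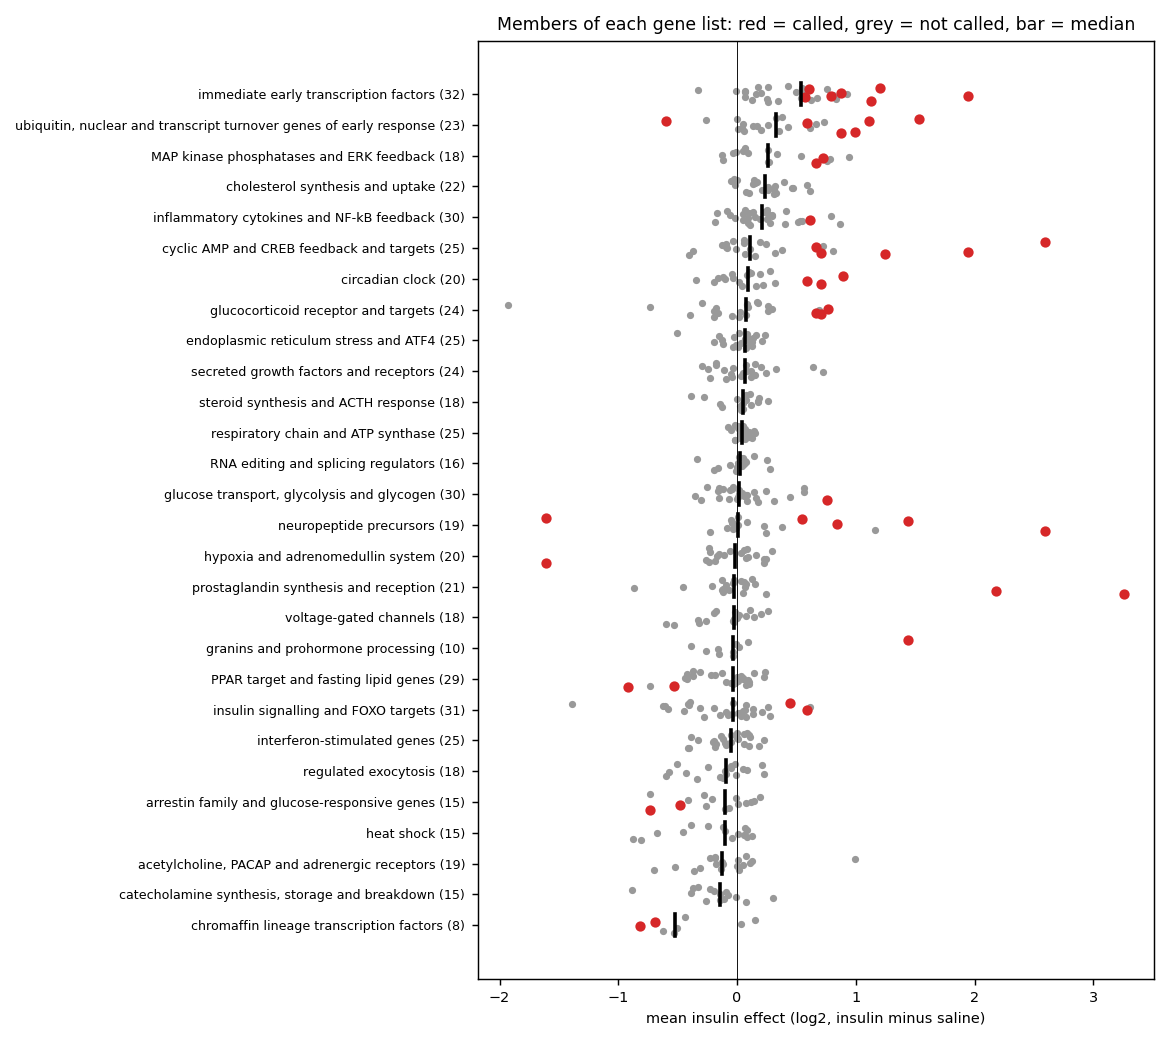
Mean insulin effect (horizontal axis, log2) of every measured member of the 28 gene lists (vertical axis, with the number measured), with called genes in red, the rest in grey and a black bar at each median. Immediate early transcription factors have the highest median (0.54) and chromaffin lineage transcription factors the lowest (-0.52), while most medians lie near 0.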

How the data were processed

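Adrenal medulla RNA of 12 mice, 3 in each of 4 groups, was measured on Affymetrix arrays, and the number of arrays limits the precision. The deposited table holds log2 intensities made by the authors; per the submitters' processing notes RMA and limma were used. No source used here states whether the 12 arrays were normalized together, or the genome build of the annotation. Of 28846 rows, 19572 had 1 gene symbol in the platform annotation, 0 had several and 9274 had none (5222 negative controls among them).

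limma 3.58.1 (R 4.3.3) was fitted to all 12 arrays (lmFit and eBayes, with a mean for each of the 4 groups, 8 residual and 4.08 prior degrees of freedom). The mean insulin effect, the effect within each state and their difference were tested, with Benjamini-Hochberg adjustment over the 19572 probe sets and a threshold of 0.05. Counts are over 19505 genes. Errors beside differences are standard errors and intervals are 95%. The script was tested on simulated data.

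The comparison, the 28 gene lists and 16 marker lists (565 of 617 listed symbols measured) and the alternatives were chosen with earlier results of these data known. Named genes were the 15 highest and 15 lowest called genes with no overlap of arrays within either state, the most changed called members of each list (at most 4), and a fixed set given whether called or not: the catecholamine enzymes Th, Dbh, Pnmt and Ddc, the peptides Chga and Npy, and the early genes Fos, Egr1 and Nr4a1. Uninformative symbols were included in the counts and not picked as named genes. Called genes whose direction turned in an alternative were also named, 2010106E10Rik and Sis among them. Gal, Nppb, Hhip, Maff, Egr3, Slc5a1, Muc13, Slc25a20 and Adarb1 were named after their values were seen. Alternatives changed the rows tested, the exclusion of dim probe sets (mean below 6.85), normalization, limma options, covariates, threshold and arrays.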

Additional observations from a re-analysis of the deposited data

Results flagged for a closer look

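Both colonization states gave different insulin effects for 7 genes in limma's test of the difference. Taken as germ-free minus colonized, the difference was 4.32 ± 0.63 (SE) for Gh (adjusted p = 0.0462), which encodes growth hormone, and read high in the germ-free insulin arrays alone. It was -3.20 ± 0.46 for Slc5a1 and -3.83 ± 0.53 for Muc13 (adjusted p = 0.0462 for both), -4.52 ± 0.57 for Guca2b (adjusted p = 0.0363) and -5.43 ± 0.53 for Reg1 (adjusted p = 0.00496). These 4 are genes of the intestinal epithelium and read high in the germ-free saline arrays alone. It was 1.06 ± 0.15 for Slc25a20, the mitochondrial carnitine carrier, and -1.52 ± 0.22 for Adarb1, an RNA-editing deaminase (adjusted p = 0.0462 for both). The insulin arrays lay on opposite sides of the saline arrays in the 2 states for these 2 genes.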

How the results depend on the processing

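No paired analysis was possible because the labels number the animals 1 to 12 and no number is shared between groups. Against 48 genes higher and 32 lower, array weights gave 129 and 118, the adipocyte covariate 84 and 74, the additive model without a difference between states 25 and 6, a threshold of 0.01 gave 14 and 6, and a threshold of 0.1 gave 98 and 91. The alternatives chosen after seeing the data gave 0 and 0 with the intestinal covariate, 0 and 0 with the pituitary covariate, and 16 and 14 without colonized saline arrays 1 and 2. All rows of the table and the dim filter each gave 20 lower genes, and median centring 21. Leaving out each animal in turn gave 17 to 68 higher genes and 9 to 63 lower genes. The test asking for both states called 0 to 1 genes in those fits, 7 with array weights and 1 with the hepatocyte covariate.

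Some directions turned. Th was -0.042 with the cortex covariate, -0.072 with the hepatocyte covariate, -0.011 without colonized saline arrays 1 and 2, and -0.015 to 0.13 without single animals. Chga was 0.0083 after median centring, 0.21 with the pituitary covariate and -0.15 to 0.033 without single animals. With the pituitary covariate Dbh was 0.29, Pnmt 0.46, Ddc 0.22, Fos -0.046, Pomc -0.0011, Prl -0.38 and Cga -0.24. With the intestinal covariate Fos was -0.076, Slc5a1 0.022, 2010106E10Rik 0.35 and Sis 0.28. The cause of these changes was not tested, and neither covariate can be told apart from the groups. Genes at the level of the negative controls in 3 groups have effects limited by signal over background.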
